A study of Mus musculus with 50 samples.

Results

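The FOXO transcription factors Foxo1, Foxo3 and Foxo4, the serum- and glucocorticoid-regulated kinase Sgk1 and 4 genes that FOXO factors are known to regulate, Cdkn1b, Gadd45a, Klf15 and Txnip, were followed across mammary gland (MG) tumors of mice that received long-term injections of insulin, an insulin analogue or IGF1. These 8 genes were picked by their symbols from the 37701 genes of the deposited expression table, and all 8 had a row in it. None of the 8 passed the test for a difference between a treatment and vehicle, whereas the tumors within a group differed from each other by several fold in Sgk1, Gadd45a and Klf15. Over the 50 tumors, Txnip was correlated with leukocyte markers, a relation that 0.945% of all tested genes outside these markers held at least as strongly. Foxo4, Cdkn1b, Foxo3 and Gadd45a were correlated with the other genes of their own chromosome, a relation that many genes of the table shared.

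FOXO factors are switched off by insulin and IGF1 signaling. Binding of these ligands to the insulin receptor or the IGF1 receptor activates PI3K and then AKT, and AKT and the related kinase SGK1 phosphorylate FOXO proteins, which are held by 14-3-3 proteins and leave the nucleus. FOXO factors that remain in the nucleus induce genes for cell cycle arrest, stress response and metabolism, among which Cdkn1b (the cell cycle inhibitor p27), Gadd45a (DNA damage and stress response), Klf15 (a transcription factor of amino acid and glucose metabolism) and Txnip (an inhibitor of thioredoxin and of glucose uptake). This control acts largely on the protein, so the mRNA of a FOXO factor is not a measure of its activity.

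All tumors came from female p53R270H/+WAPCre mice, which carry 1 mutant p53 allele that Cre, driven by the whey acidic protein promoter, switches on in MG epithelium. Treatment began at 8 weeks of age and lasted until a tumor had formed, with a subcutaneous dose on alternate days. The 5 groups were vehicle, insulin, glargine (an insulin analogue in clinical use), X10 (an insulin analogue with raised affinity for the IGF1 receptor) and IGF1. Tumors were taken at 1 cm3, 24 hours after the last injection, so that the RNA does not show the first hours of a ligand response. There were 10 tumors per group, 50 in all, each from a mouse with its own number, and the authors had chosen tumors of an EMT-like (mesenchymal) morphology near the median latency of each group. Tumors are named by their titles, in which the vehicle tumors are called Untreated followed by the mouse number. The titles and protocols give neither doses nor a batch. The labels number the sequenced samples group by group, and do not say whether this is an order of processing.

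The values are RPKM, read numbers scaled to gene length and library size, from libraries of 26.6 to 51.9 M reads. The labelled tissue was checked on marker genes. Summed RPKM of 6 epithelial markers (Epcam, Cdh1, Krt8, Krt18, Krt14, Krt5) were between 9.58 and 5098, with group medians from 139.5 (IGF1) to 363.5 (vehicle). Those of 7 mesenchymal markers (Col1a1, Col3a1, Dcn, Lum, Pdgfra, Pdgfrb, Vim) were between 3711 and 30827, with group medians from 11642 (IGF1) to 16594 (insulin). Of 4 milk protein genes, Wap was at 0 in 17 tumors, Csn2 in 2, and Csn3 and Lalba in 0. Their medians over all tumors were 0.054, 3.27, 8.92 and 0.669 RPKM. Sums of 8 skeletal muscle markers ran from 6.38 to 6490 and those of 8 leukocyte markers from 642.5 to 2874. No 2 tumors were duplicates: over 1225 pairs the highest correlation of log2 values was 0.982, with a median of 0.935.

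Promoter sequences (RefSeq, GRCm38.p6, 250 bases before to 50 after a start site) were at hand for 7 of the 8 genes, in 12 windows of which several belong to Sgk1. They were searched on both strands for the FOXO core TGTTTAC, the insulin response core TGTTTTG, the E-box CACGTG, the glucocorticoid hexamer TGTTCT and the CREB site TGACGTCA. The FOXO core was found in Txnip alone among these genes, at position -121 from the start site, and 3.65% of all 32851 promoter windows hold it. Glucocorticoid hexamers were found in 3 windows of Sgk1, at 5 positions, and 19.0% of all windows hold at least 1. The E-box stands at -228, -172 and -3 of Klf15 and at -246 of Sgk1, where it overlaps a glucocorticoid hexamer, and 7.15% of all windows hold it. The insulin response core (6.28% of all windows) and the CREB site (1.79%) were not found in the windows of these genes. A match describes the letters only. The bases before the start site are shown for Txnip (chr3:96557707-96557956, plus strand), with the FOXO core in capitals, and for the Sgk1 window with the most hexamers (chr10:21993640-21993889, plus strand), with the hexamers in capitals, since these are the genes with a FOXO core and with glucocorticoid hexamers in their windows. The windows of Klf15, Gadd45a and Cdkn1b held no hexamer.
Txnip: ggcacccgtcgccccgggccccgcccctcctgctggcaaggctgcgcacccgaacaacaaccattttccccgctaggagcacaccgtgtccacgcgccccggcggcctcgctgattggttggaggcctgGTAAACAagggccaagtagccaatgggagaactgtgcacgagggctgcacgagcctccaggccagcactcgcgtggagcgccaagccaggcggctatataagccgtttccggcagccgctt
Sgk1: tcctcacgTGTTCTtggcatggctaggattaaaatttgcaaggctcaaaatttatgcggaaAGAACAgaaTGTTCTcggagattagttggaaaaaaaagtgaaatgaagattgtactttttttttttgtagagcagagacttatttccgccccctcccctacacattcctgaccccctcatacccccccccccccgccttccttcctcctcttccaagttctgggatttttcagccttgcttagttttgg

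The level of the 8 genes differed widely. Txnip had a mean of 345.5 RPKM over the 50 tumors and Sgk1 one of 177.6 RPKM. Gadd45a (39.1 RPKM), Foxo3 (38.1 RPKM), Foxo4 (25.2 RPKM) and Cdkn1b (13.7 RPKM) followed, and Foxo1 (6.27 RPKM) was the lowest of the FOXO factors. Klf15 was the lowest of the 8 genes, with a mean of 0.704 RPKM. This order depends on the gene length in the RPKM. The lengths recovered from the steps of the values were 599 bases for Txnip and 749 bases for Sgk1, near the median of their annotated transcripts, while their longest transcripts have 2827 and 3096 bases. Divided by all exon bases of a gene, the means were 66.3 for Txnip, 27.1 for Sgk1, 16.5 for Gadd45a, 12.8 for Foxo3, 10.5 for Cdkn1b, 9.73 for Foxo4, 4.02 for Foxo1 and 0.598 for Klf15. On that scale Cdkn1b and Foxo4 changed places. Comparisons of a gene between tumors do not depend on the length. Klf15 rested on 6 to 456 reads per tumor, with a median of 44.5 reads, and the other 7 genes on at least 217 reads.

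**Figure D1:**
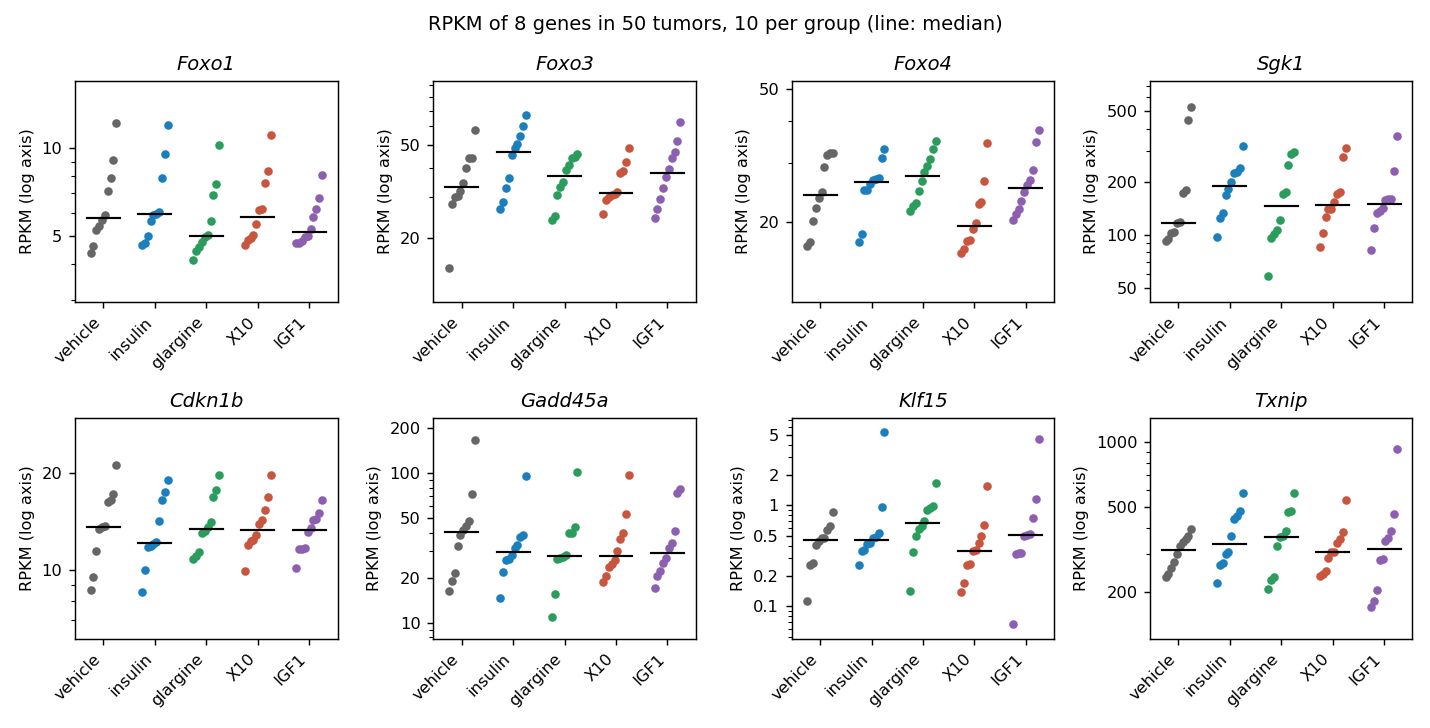
RPKM on a log axis of the 8 genes in 50 tumors, with 10 tumors per treatment group as points and the group median as a line. The groups overlap for every gene, and single tumors stand far above their group in Gadd45a, Klf15 and Txnip, such as IGF1_158 with 928.2 RPKM of Txnip.

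Foxo3, a FOXO factor that is widely expressed and encoded on the minus strand of chromosome 10 (ENSMUSG00000048756, GRCm38 chr10:42181841-42276755), had the largest difference of the FOXO factors from vehicle, in the insulin group. Vehicle tumors had 15.0 RPKM at the lowest, 33.2 at the median and 57.8 at the highest. Insulin tumors had 26.5, 46.8 and 66.9 RPKM. The values of the 2 groups overlapped over most of their range, and Untreated_195 was the lowest of all 50 tumors while insulin_15 was the highest. The difference was 0.35 on the log2 scale (SE 0.18, 95% interval -0.02 to 0.71), and limma gave an adjusted p of 0.473. Without Untreated_195 the difference was 0.22 (adjusted p = 0.728). The median was 36.9 RPKM with glargine (24.0 to 45.7), 31.2 RPKM with X10 (25.5 to 48.6) and 37.8 RPKM with IGF1 (24.3 to 62.6). In the order of the group means, insulin (45.0 RPKM) stood first and X10 (34.5 RPKM) last, and no neighbours in that order differed past the threshold.

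Foxo4 lies on the X chromosome (ENSMUSG00000042903, chrX:101254528-101260873, plus strand) and had the smallest p of the 8 genes in the test over all 5 groups (F test of limma, p = 0.0817, adjusted p = 0.445). X10 tumors had 16.2 RPKM at the lowest, 19.5 at the median and 34.4 at the highest. The corresponding values were 17.0, 24.1 and 32.2 RPKM with vehicle, 17.5, 26.4 and 33.1 RPKM with insulin, 21.6, 27.4 and 35.0 RPKM with glargine and 20.3, 25.2 and 37.6 RPKM with IGF1. X10 had the lowest median and the lowest tumor (X10_116), but X10_100 reached 34.4 RPKM, and all groups overlapped. X10 differed from vehicle by -0.22 (SE 0.14, 95% interval -0.49 to 0.05, adjusted p = 0.555). X10 and glargine, both analogues of insulin, differed by -0.37 (95% interval -0.65 to -0.10), with a limma p of 0.00832 before and 0.166 after adjustment over all genes, in a comparison where 1.78% of all genes passed after adjustment. IGF1 and X10 differed by 0.31 (95% interval 0.04 to 0.58, adjusted p = 0.386). X10 and insulin differed by -0.27 (95% interval -0.54 to 0.0017, adjusted p = 0.444). Over the 80 differences between pairs of groups in these 8 genes, 0 passed an adjusted p of 0.05 and 2, those of Foxo4 between X10 and glargine and between X10 and IGF1, an unadjusted p of 0.05. In these 2 pairs 11.6% and 11.7% of all genes had an unadjusted p under 0.05. Among the pairs of ligands other than X10 and glargine, 0% of all genes passed after adjustment for glargine and insulin and 0.102% for X10 and insulin. The share was 0.00598% for IGF1 and insulin, 0% for IGF1 and glargine and 0% for IGF1 and X10.

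Foxo1 (ENSMUSG00000044167, chr3:52268336-52353221, plus strand), the FOXO factor best known from insulin action in the liver, had the lowest level of the FOXO factors in all groups. Its group medians were between 5.00 RPKM with glargine and 5.92 RPKM with insulin, and single tumors between 4.13 and 12.2 RPKM. The difference from vehicle ranged from -0.20 (IGF1, 95% interval -0.54 to 0.15) to 0.00045 (insulin, 95% interval -0.34 to 0.34). Over the 4 ligands the intervals reached from 0.687-fold to 1.27-fold of vehicle, so smaller differences could not be told from none. Without Untreated_182 the difference with IGF1 was -0.10.

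Sgk1 (ENSMUSG00000019970, chr10:21882184-21999903, plus strand), which shares substrates with AKT and is itself induced by serum and glucocorticoids, varied far more within groups than between them. Vehicle tumors had 92.1, 117 and 531 RPKM as lowest, median and highest value. Insulin tumors had 97.0, 190 and 319 RPKM, and glargine tumors 58.3, 146 and 295 RPKM. X10 tumors had 85.0, 148 and 309 RPKM, and IGF1 tumors 81.7, 150 and 362 RPKM. Untreated_161 and Untreated_187 (445 RPKM) were the highest of all 50 tumors, although the vehicle median was the lowest of the 5 groups. The differences from vehicle were 0.20 with insulin (95% interval -0.40 to 0.80), -0.10 with glargine, -0.01 with X10 and -0.03 with IGF1, with adjusted p-values of limma between 0.842 and 0.999. Without Untreated_161 the 4 differences were 0.39, 0.094, 0.18 and 0.17, and without Untreated_187 that with insulin was 0.37. The SD of log2 values within groups was 0.69 for Sgk1, and 93.2% of the 500 genes of the nearest mean level had a smaller one. Reads of Sgk1 may be shared with the processed pseudogene Gm11025 (chr12:57272847-57273312, minus strand), of which 462 aligned positions were 87.0% identical to a Sgk1 transcript. Gm11025 had the pattern most like that of Sgk1 (r = 0.92 over 50 tumors, values minus group means), but Sgk1 was 80.9 to 309 times as high in RPKM. Whether reads were misassigned between them was not tested. The next 2 genes, Tle6 (r = 0.67) and Ptprk (r = 0.65), lie on chromosome 10 like Sgk1.

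Among the FOXO targets, Cdkn1b (ENSMUSG00000003031, chr6:134920401-134925513, plus strand) was the steadiest. Its group medians were between 12.1 RPKM with insulin and 13.6 RPKM with vehicle, and its 50 tumors between 8.56 and 21.2 RPKM. The differences from vehicle were between -0.07 and 0.02 on the log2 scale, with 95% intervals that stayed within -0.35 and 0.29. Of the 500 genes of like level, 23.6% had a smaller SD within groups.

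Gadd45a (ENSMUSG00000036390, chr6:67035096-67037457, minus strand) was the most variable of the 8 genes in this respect, with an SD of 0.80 and 94.6% of genes of like level below it. Vehicle tumors had 16.3, 40.2 and 167 RPKM as lowest, median and highest value, insulin tumors 14.6, 29.9 and 95.9 RPKM, and glargine tumors 11.0, 27.8 and 102 RPKM. X10 tumors had 18.8, 28.2 and 96.3 RPKM, and IGF1 tumors 17.1, 29.4 and 77.96 RPKM. All 4 ligand groups had a lower median than vehicle, but their ranges overlapped almost entirely with it. The differences from vehicle were -0.33 with insulin, -0.37 with glargine, -0.27 with X10 and -0.27 with IGF1, none of which passed the threshold (adjusted p between 0.765 and 0.911). For the 4 ligands pooled the difference was -0.31 (95% interval -0.86 to 0.24). These values share Untreated_161, the highest of all tumors, without which they were -0.097, -0.14, -0.044 and -0.040, and -0.080 for the pool. Single tumors of the ligand groups moved them as well, for instance to -0.50 with insulin without insulin_15. The 3 genes most like Gadd45a were Hsf2bp (r = 0.67), Nsmf (r = 0.64) and Gabarapl1 (r = 0.64), an autophagy gene.

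Klf15 (ENSMUSG00000030087, chr6:90462576-90475238, plus strand) was below 1 RPKM in most tumors. Its group medians were 0.459 RPKM with vehicle, 0.453 with insulin, 0.664 with glargine, 0.356 with X10 and 0.505 with IGF1. The tumors insulin_13 (5.27 RPKM) and IGF1_158 (4.56 RPKM) were far above the rest, the next of which, glargine_64, had 1.68 RPKM. The differences from vehicle were between -0.03 (X10) and 0.34 (glargine, 95% interval -0.22 to 0.91), and the adjusted p-values of limma were at least 0.725. The difference with insulin was 0.30, and 0.046 without insulin_13, and that with IGF1 was 0.29, and 0.050 without IGF1_158. The 3 genes most like Klf15 were Tesc (r = 0.71), Pycr1 (r = 0.71), a proline synthesis enzyme, and B4galnt2 (r = 0.68), and without the 2 tumors farthest out r fell to 0.49, 0.44 and 0.18.

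Txnip (ENSMUSG00000038393, chr3:96557957-96561883, plus strand) was high in every tumor. Vehicle tumors had 234, 316 and 394 RPKM as lowest, median and highest value, and insulin tumors 222, 336 and 578 RPKM. Glargine tumors had 206, 363 and 578 RPKM, X10 tumors 239, 307 and 538 RPKM and IGF1 tumors 170, 317 and 928 RPKM. The lowest and the highest Txnip of all tumors were both found in the IGF1 group. The differences from vehicle were 0.21 with insulin, 0.18 with glargine, 0.05 with X10 and 0.06 with IGF1, with adjusted p-values of limma of at least 0.756. The difference with insulin was 0.13 without insulin_9, and that with glargine 0.096 without glargine_69. When the leukocyte marker score was added to the fit, which was decided after the values had been seen, these differences were -0.16, -0.021, -0.14 and -0.14, with adjusted p-values of limma between 0.764 and 0.989.

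**Figure D2:**
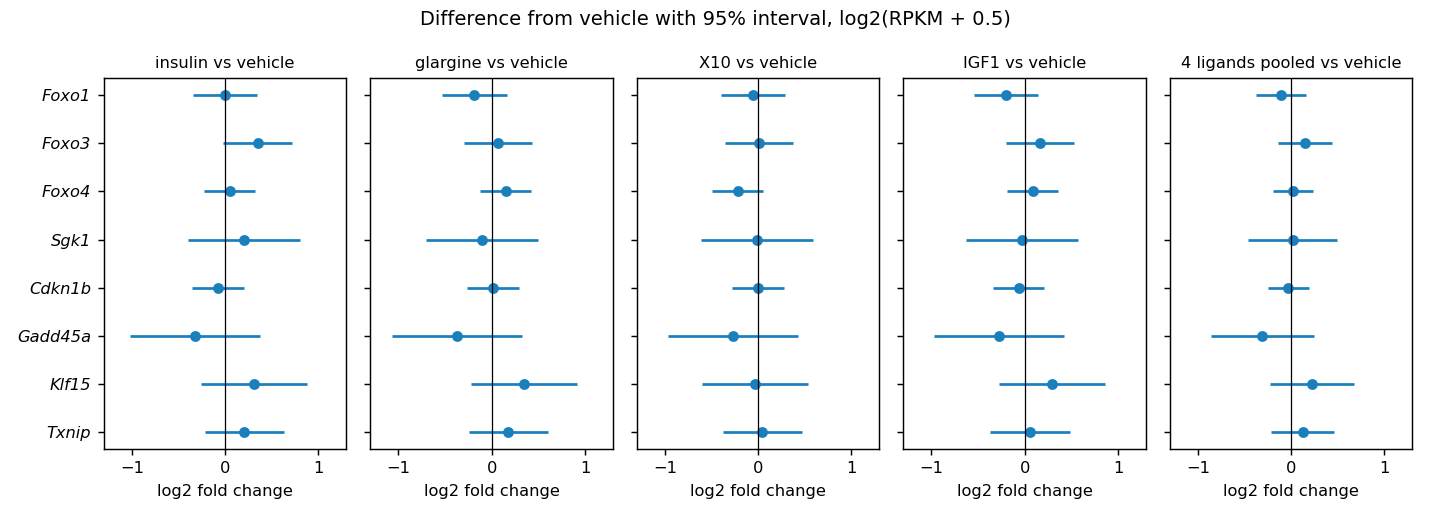
Log2 fold change against vehicle (points) with its 95% interval (lines) for the 8 genes, in each ligand group and in the 4 ligands pooled. Every interval includes 0, and those of Sgk1, Gadd45a and Klf15 are the widest.

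In all, limma called 0 of the 8 genes in each of the 6 comparisons, and 0 also at an unadjusted p of 0.05, and limma voom on reads recovered from the RPKM called 0. The 4 ligand groups and their pool were all compared with the same 10 vehicle tumors. The background was low too: of 16733 tested genes, 0% were called for insulin, 0% for glargine, 0.0657% for X10, 0.00598% for IGF1, 0.0239% for the 4 ligands pooled, 0.155% for X10 and IGF1 against the other 3 groups and 0.102% for any difference between groups. At an unadjusted p of 0.05 the shares of all genes were 11.1%, 6.23%, 11.0%, 8.84%, 9.28%, 10.5% and 13.1%. The members lay on both sides of 0. With insulin 2 of 8 were below vehicle (45.5% of all genes), with glargine 3 (45.9%), with X10 5 (55.6%), with IGF1 4 (46.6%) and with the 4 ligands pooled 3 (48.1%). In X10 and IGF1 tumors against the remaining 30, all 8 genes had a lower mean, by 0.01 (Cdkn1b) to 0.13 (Foxo4) on the log2 scale, with an adjusted p of at least 0.648. Of all genes, 56.4% were lower in that comparison. Quantile normalization moved the median difference of all genes by 0.047 and upper quartile scaling by 0.016. Foxo1 (0.00099) and Cdkn1b (0.032) were above 0 under the first and Cdkn1b (0.0037) under the second, and all 3 values lay below the shift of all genes under that scaling.

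Other genes of the pathway were put in 11 lists of 127 genes, 122 of which were tested, and limma called 0 of the 122 in each of the 6 comparisons. At an unadjusted p of 0.05, 4 were higher and 8 lower with insulin, 2 and 4 with glargine, 2 and 7 with X10, 3 and 6 with IGF1, and 1 and 11 with the 4 ligands pooled. These are 9.84%, 4.92%, 7.38%, 7.38% and 9.84% of the listed genes, beside 11.1%, 6.23%, 11.0%, 8.84% and 9.28% of all genes. In X10 and IGF1 tumors against the rest 3 were higher and 9 lower, 9.84% beside 10.5% of all genes. Of all genes, 5.17%, 2.92%, 8.25%, 4.34%, 5.3% and 7.57% were lower at an unadjusted p of 0.05 in these 6 comparisons. Upstream of FOXO, Irs1, the docking protein of both receptors, differed by -0.90 with IGF1 (SE 0.28, adjusted p = 0.334). Ywhaz, a 14-3-3 protein, differed by 0.31 with X10 (SE 0.12, adjusted p = 0.319). In X10 and IGF1 tumors against the rest Ywhaz differed by 0.26 (SE 0.08, adjusted p = 0.117). Of FOXO cofactors, the acetyltransferase gene Crebbp differed by -0.29 in X10 and IGF1 tumors against the rest (SE 0.08, adjusted p = 0.112). Of other FOXO targets, Ccng2, an unusual cyclin that slows the cell cycle, differed by 0.60 with X10 (SE 0.22, adjusted p = 0.315). In X10 and IGF1 tumors against the rest Ccng2 differed by 0.39 (SE 0.14, adjusted p = 0.257). Scnn1a, a sodium channel subunit whose channel SGK1 is known to raise at the membrane, had a lower mean in all 4 ligand groups, by -0.61 with X10 (SE 0.22, adjusted p = 0.312) and -0.64 with IGF1 (adjusted p = 0.374). Gadd45b, a relative of Gadd45a, differed by -0.61 for the 4 ligands pooled (SE 0.20, adjusted p = 0.314). Phlda3, a p53 target and inhibitor of AKT, differed by -0.68 with insulin (SE 0.20, adjusted p = 0.264). Of glucocorticoid-responsive genes, Fkbp5 differed by 0.32 for the 4 ligands pooled (SE 0.11, adjusted p = 0.323), and Lcn2, which encodes lipocalin, by -3.55 with IGF1 (SE 1.01, adjusted p = 0.277). Of clock genes, Nr1d1 differed by -0.65 with insulin (SE 0.21, adjusted p = 0.301). The remaining list genes with the smallest p over the 5 groups are given by their largest difference between a single ligand and vehicle. It was -0.47 for the coactivator gene Ppargc1a, -0.90 for Pck1 (gluconeogenesis), 0.49 for the cell cycle inhibitor Cdkn1c, 0.31 for the clock output gene Tef and -0.44 for the immediate early gene Egr1, all with IGF1, where Txn2, the mitochondrial thioredoxin, stood at 0.21. With insulin it was 0.42 for the proliferation gene Mki67, -0.22 for the transcription factor Klf4 and -0.45 for the immediate early gene Fos. With glargine it was 0.62 for Pparg, the adipocyte regulator, and -0.30 for the arrestin Arrdc4, and with X10 it was -0.34 for the scaffold gene Slc9a3r2. These 12 differences had adjusted p-values of limma between 0.441 and 0.863, and 0 of the list genes passed the threshold.

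Across tumors, the 8 genes were related to each other only loosely. For each of the 28 pairs the log2 values were centred within treatment groups and shuffled within groups 100000 times. Of the 28 correlations, 22 were positive and 0 passed an adjusted p of 0.05 by Pearson's r, while 1 passed by rank. When the centred values were shuffled over all 50 tumors instead, which was the first way tried, 1 passed by r. Foxo1 and Cdkn1b had the highest r (0.44, adjusted permutation p = 0.0898, rho 0.38 with adjusted p = 0.119, and r 0.39 without the 2 tumors farthest out). Gadd45a and Klf15 were related by rank (rho 0.46, adjusted permutation p = 0.0269) but not by r (0.31, adjusted p = 0.102). Foxo3 and Foxo4 had an r of 0.35 (adjusted p = 0.0898), and Foxo1 had an r of 0.089 with Foxo3 and 0.11 with Foxo4. Sgk1 had its highest r with Cdkn1b (0.37, adjusted p = 0.0898).

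The members were then set beside the mean of each pathway list, in 88 relations, and beside the mean of each marker list, in 64 relations, with values centred within groups. Of these, 20 and 2 passed an adjusted permutation p of 0.05 by both r and rho. Of the 88 list relations 25% had an absolute r of at least 0.37, the smallest that passed, beside 16.2% of all relations between these lists and the tested genes outside them. Of the 64 marker relations 3.13% reached 0.48, beside 3.80% for the tested genes. The lists share genes with each other and were chosen with earlier results known. The mean of 23 other FOXO targets, of which Sesn1, Bcl6 and Gabarapl1 are examples, was related to 6 of the 8 genes, with r of 0.54 for Foxo1, 0.46 for Foxo3, 0.47 for Foxo4, 0.48 for Cdkn1b, 0.43 for Txnip and 0.41 for Sgk1. An r of at least that of Sgk1 was held by 3.40% of all tested genes outside the list. Single genes of the list had r values on both sides of 0. Bcl6 was the gene of the list most like Sgk1 (r = 0.54) and Gabarapl1 the one most like Foxo1 (r = 0.49). The least alike were Ccnd1, the gene of cyclin D1, for Foxo1 (r = -0.24) and Txnip (r = -0.34), Cdkn1a for Foxo3 (r = -0.23) and Foxo4 (r = -0.22), Ccnd2 for Sgk1 (r = -0.27) and Pck1 for Cdkn1b (r = -0.30). The mean of 10 glucocorticoid-responsive genes was related to Gadd45a (r = 0.63, rho = 0.60, adjusted permutation p = 0.00176), Sgk1 (r = 0.53, adjusted p = 0.00462), Cdkn1b (r = 0.43) and Klf15 (r = 0.37), and 3.59% of all tested genes outside the list had an r of at least that of Klf15. In this list Dusp1, a phosphatase gene of the immediate stress response, was the most like Sgk1 (r = 0.56), and Fkbp5 the least (r = -0.26). Sgk1 was also related to the list of Txnip regulators and arrestins (r = 0.57), where Arrdc3 was the most alike (r = 0.61), and to immediate early genes (r = 0.49). Foxo3 was related to its upstream genes (r = 0.56), with Pik3cb, a catalytic PI3K subunit, the most alike (r = 0.59), and to FOXO cofactors (r = 0.53). These 2 values were common, since 12.3% and 12.8% of all tested genes had an r at least as high. Klf15 was lower where the upstream genes were higher (r = -0.38, reached by 13.6% of all tested genes), and rose with the metabolic list (r = 0.52), where Bcat2, an enzyme of branched-chain amino acid breakdown, was the most alike (r = 0.45). Txnip rose with the same metabolic list (r = 0.59). Partners of p27 in the cell cycle fell as Gadd45a (r = -0.38, reached by 5.95% of all tested genes) and Txnip (r = -0.41, reached by 4.73%) rose. Foxo1 was related to the list of SGK kinases and substrates (r = 0.39, reached by 4.13%). The genes to which 4 of the lists belong by name were not themselves related to them past the threshold. The r was -0.13 for Cdkn1b with the partners of p27, 0.17 for Sgk1 with the SGK list, 0.12 for Txnip with its regulators and 0.04 for Gadd45a with the list of its relatives and p53 targets.

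The 2 marker relations concerned Txnip and Gadd45a. Of all tested genes outside the markers, 0.945% were related at least as strongly to the leukocyte markers as Txnip. For the proliferation markers and Gadd45a this share was 1.45%. Txnip rose with the mean of 8 leukocyte markers (r = 0.72, rho = 0.77, adjusted permutation p = 0.00064 for both, r = 0.77 without the 2 tumors farthest out), with Csf1r, a macrophage receptor, the most alike (r = 0.69). The tumor with the most Txnip, IGF1_158, had the highest leukocyte sum (2874 RPKM, of which Lyz2 alone made 2359 RPKM) and the lowest epithelial sum (9.58 RPKM) of all 50. On the mean of centred log2 markers, which the correlation uses, it stood at 0.91, below Untreated_186 (1.49), insulin_8 (1.43), X10_105 (1.09), insulin_9 (1.04) and glargine_69 (0.95). Leukocyte sums had medians of 1147 RPKM with vehicle, 1667 with insulin, 1256 with glargine, 1373 with X10 and 1666 with IGF1, and 0 of the 8 markers was at 0 in any tumor. In bulk tumors more leukocytes and more RNA of these genes per cell cannot be told apart. The 3 genes most like Txnip were Ptafr (r = 0.77), the receptor of platelet-activating factor, Blnk (r = 0.76), an adaptor of B cell signaling, and Ttc7 (r = 0.75). Gadd45a fell as the mean of 5 proliferation markers rose (r = -0.48, rho = -0.55, adjusted permutation p = 0.0198 and 0.00288, r = -0.48 without the 2 tumors farthest out). X10_100, with 96.3 RPKM of Gadd45a, had the second lowest proliferation sum of all tumors (265.8 RPKM). Not every tumor followed the relation. The sum was 595.1 RPKM in insulin_15 (95.9 RPKM of Gadd45a) and 652.9 RPKM in IGF1_132 (73.1 RPKM of Gadd45a). Gadd45a had an r of 0.14 with the leukocyte markers (adjusted permutation p = 0.595) and Txnip one of -0.28 with the proliferation markers (adjusted permutation p = 0.324). A part of leukocytes or of dividing cells in these relations was not tested.

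**Figure D3:**
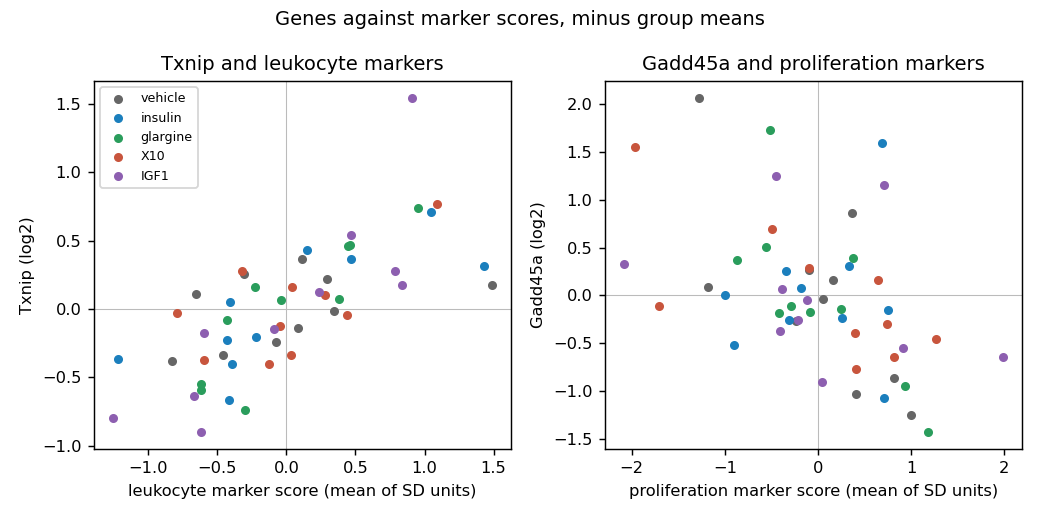
Txnip against the mean of 8 leukocyte markers, and Gadd45a against the mean of 5 proliferation markers, each point a tumor coloured by treatment, all values minus group means. Txnip rises with the leukocyte score (r = 0.72) and Gadd45a falls with the proliferation score (r = -0.48).

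The genes most like Foxo3, Foxo4 and Cdkn1b lay on the same chromosome as these, a pattern that was looked for only after the values had been seen. The 3 genes most like Foxo3 were Cnksr3 (r = 0.73), Tspyl1 (r = 0.71) and Hivep2 (r = 0.70), which all lie on chromosome 10, at distances of 7.90 to 35.1 Mb. Those most like Foxo4 were Rab9 (r = 0.72), Zmym3 (r = 0.68) and Gm14536 (r = 0.65), all on the X chromosome, at distances of 0.150 to 88.1 Mb. Among those most like Cdkn1b were Kdm3a (r = 0.67) and Kbtbd2 (r = 0.64), both on chromosome 6, at distances of 63.3 and 78.1 Mb. Foxo1 lies on chromosome 3, but those most like it were Mgp (r = 0.68) and Vamp1 (r = 0.64) on chromosome 6 and Trib2 (r = 0.63) on chromosome 12. Of the 100 genes most like Foxo4, 60 lay on the X chromosome, where 4.64% of tested genes lie. The number was 52 of 100 for Cdkn1b (chromosome 6, 5.50% of tested genes), 31 for Gadd45a (chromosome 6) and 27 for Foxo3 (chromosome 10, 4.37%). It was 12 for Sgk1, 9 for Klf15, 4 for Foxo1 and 1 for Txnip. Over all tested genes with a chromosome the median of this number was 14, and 9.73% of them had at least the number of Foxo4, 14.0% that of Cdkn1b, 29.5% that of Gadd45a and 33.8% that of Foxo3.

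**Figure D4:**
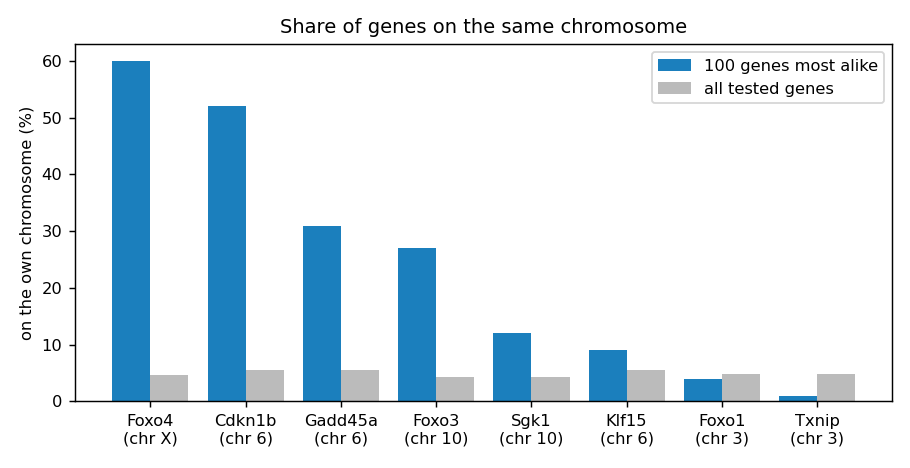
Share of the 100 genes most like each of the 8 genes that lies on its own chromosome, in percent, beside the share of all tested genes on that chromosome. The share is 60 for Foxo4 and 52 for Cdkn1b, and 1 for Txnip.

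The same pattern was seen against the median of all protein-coding genes of a chromosome, without the gene itself and with values centred within groups. The r was 0.58 for Cdkn1b (adjusted permutation p = 0.0004 over the 8 genes), 0.56 for Foxo4 (adjusted p = 0.00044), 0.45 for Foxo3 (adjusted p = 0.00384) and 0.44 for Gadd45a (adjusted p = 0.0049). Spearman's rho was 0.58, 0.56, 0.47 and 0.37, and without the 2 tumors farthest out r was 0.56, 0.55, 0.46 and 0.37. For each of these 4 genes its own chromosome ranked first among 20. Among all 16514 tested genes with a chromosome, the own chromosome ranked first for 36.6%, and 33.3% had an r of at least that of Gadd45a. An r of at least that of Cdkn1b was held by 18.5%, that of Foxo4 by 20.7% and that of Foxo3 by 32.7%. The relation was thus shared by many genes, and nothing particular to these 4 is read from it. The next highest r was 0.30 for Cdkn1b (chromosome 8), 0.25 for Foxo4 (chromosome 7), 0.40 for Foxo3 (the X chromosome) and 0.20 for Gadd45a (chromosome 17). Sgk1 (r = 0.30, adjusted p = 0.0776), Klf15 (r = 0.22), Foxo1 (r = 0.21) and Txnip (r = 0.0037) did not pass an adjusted p of 0.05. These 4 had their highest r with another chromosome, which was chromosome 6 for Foxo1 (r = 0.54) and Txnip (r = 0.48), chromosome 8 for Sgk1 (r = 0.40) and chromosome 7 for Klf15 (r = 0.32). Within single groups of 10 tumors, r with the own chromosome was positive in 5 of 5 groups for Foxo4 (0.29 to 0.87) and Cdkn1b (0.11 to 0.86), and in 4 of 5 groups for Foxo3 (-0.096 to 0.72) and Gadd45a (-0.017 to 0.69). In vehicle, insulin and X10, the tumor with the lowest Foxo4 (Untreated_161, insulin_13 and X10_116) was also the one with the lowest X chromosome median, at -0.73, -0.44 and -0.28 on the log2 scale relative to the mean of all tumors. A low median was not limited to the X chromosome in these tumors. The median of insulin_13 was also the lowest of its group on the other 3 chromosomes of the 8 genes, at -0.24 on chromosome 10, -0.30 on chromosome 3 and -0.24 on chromosome 6. That of X10_116 was also the lowest of its group on chromosome 6 (-0.14), and that of Untreated_161 was the second lowest on chromosome 3 (-0.28) but stood at 0.0036 on chromosome 10 and 0.25 on chromosome 6. With glargine the lowest Foxo4 (glargine_78) had an X chromosome median of 0.15, and with IGF1 that of the lowest (IGF1_135) was the second lowest of its group. The tumors with the highest Foxo4 ranked 3, 6, 6, 5 and 2 from the top in the X chromosome median of vehicle, insulin, glargine, X10 and IGF1, so the relation did not hold in every tumor. With the own chromosome as a covariate, Foxo4 differed between X10 and vehicle by -0.28 (SE 0.12, limma p = 0.0197, adjusted p = 0.377), and 0 of the 8 genes passed the threshold. Why the genes of a chromosome moved together was not tested.

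**Figure D5:**
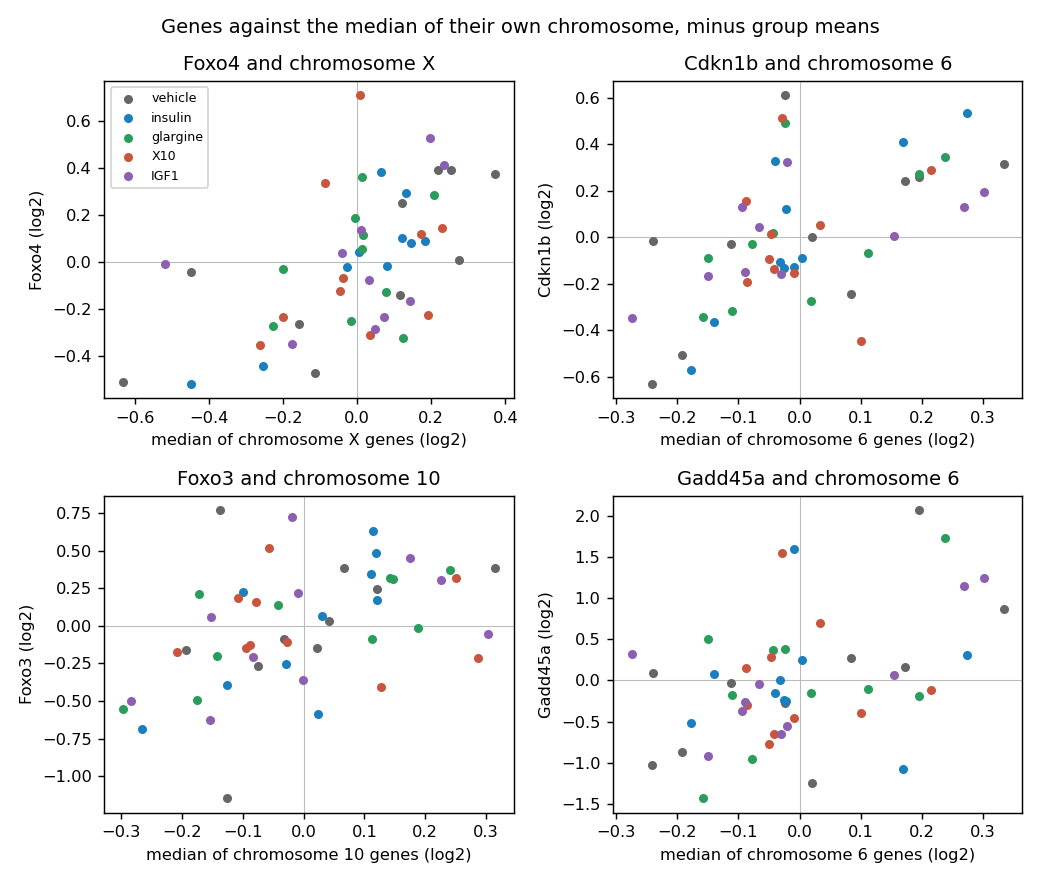
Log2 values of Foxo4, Cdkn1b, Foxo3 and Gadd45a against the median of all protein-coding genes on the same chromosome, each point a tumor coloured by treatment, all values minus group means. The points rise from the lower left to the upper right with r of 0.56, 0.58, 0.45 and 0.44.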

How the data were processed

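RNA of 50 MG tumors was Poly-A selected and sequenced on the Ion Proton by the authors, aligned to GRCm38 with TopHat2 2.0.10 and Bowtie2, counted with HTSeq 0.6.1 and deposited as RPKM. The processing notes of the submitters also list DESeq2 1.2.10. The values were taken as log2(RPKM + 0.5), so that fold changes of low genes are understated, and genes with a mean of at least 0.5 RPKM were kept (16733 genes). All 5 groups were fitted with limma (3.58.1, R 4.3.3) with an intensity trend, and the Benjamini-Hochberg adjustment covered the 16733 genes. The fit was tested on simulated data with 16733 genes for X10 against vehicle, where 83% of changes of 1 and 95% of changes of 2 on the log2 scale were found, with 9 false calls. RPKM values were whole multiples of a step, and reads were recovered from these steps for 98.5% of tested genes, with at least 98.8% of low values whole in each tumor. Correlations were tested two-sided with 100000 permutations within treatment groups. Named are the 8 genes, from each pathway list the genes passing in any comparison and otherwise the 2 with the smallest p of the F test, and for each of the 8 genes the 3 with the highest Pearson r over tumors, of which 1 is not reported here. Nucleotide searches used RefSeq promoters. Alternatives were other pseudocounts, filters, scalings and covariates, limma voom on the recovered reads, fits of the compared groups alone and leaving out single tumors. Genes of like level were the 500 nearest in mean. The 8 genes and the lists were chosen with earlier results of these data known. P-values measure the spread between tumors. Coordinates are those of GENCODE M21 (GRCm38), and the number of tumors limits the precision.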

Additional observations from a re-analysis of the deposited data

Results flagged for a closer look

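In 10 of 40 combinations of a gene and a treatment group, 1 tumor lay farther from the other 9, relative to the range of its group, than Dixon's test allows at 95%. Chance gives this in about 1 of 20 groups, or 2 of 40, where values are spread normally, and RPKM values are skewed toward high ones. Among all tested genes 16.2% of the 83665 combinations passed the same limit. On the log2(RPKM + 0.5) scale, an alternative chosen after seeing the data, 4 of the 40 combinations passed it, beside 9.28% of those of all tested genes. These 4 were Gadd45a in insulin and Klf15 in insulin, X10 and IGF1. On the RPKM scale each of the 10 values was the highest of its group. Gadd45a stood apart in Untreated_161 (166.9 RPKM), insulin_15 (95.9 RPKM), glargine_69 (102.1 RPKM) and X10_100 (96.25 RPKM). Klf15 stood apart in insulin_13 (5.266 RPKM), X10_105 (1.546 RPKM) and IGF1_158 (4.559 RPKM), and Txnip in X10_105 (537.7 RPKM) and IGF1_158 (928.2 RPKM). Sgk1 stood apart in IGF1_124 (362.1 RPKM). These were 8 different tumors. X10_105 had the second highest adipocyte and epithelial sums and the third highest skeletal muscle sum of all 50 tumors. Untreated_161, which also had the highest Sgk1, had the second lowest leukocyte sum and the second lowest adipocyte sum. The part of these cells in the values was not tested.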

How the results depend on the processing

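Under every alternative that was run, and without each tumor in turn, 0 of the 8 genes was called in each comparison, and the lowest adjusted p of any of them was 0.293. No paired analysis was possible because the groups share no mouse numbers. Leaving out all but the compared groups could not be done for the pooled comparisons, which use all groups, and Klf15 is left out by a minimum mean of 2 RPKM. The count of all genes called moved for X10 (11) to 24 with no filter, 4 with only the compared groups and 1 with library size as a covariate. For X10 and IGF1 against the rest (26) it moved to 11 with no filter, 51 with upper quartile scaling, 16 with limma voom and 10 with library size. For IGF1 (1) it was 0 with a minimum of 2 RPKM and 0 with only the compared groups, for insulin (0) it was 2 with quantile normalization, 2 with upper quartile scaling and 3 with library size, and for the 4 ligands pooled (4) it was 2 with a leukocyte score. Without single tumors the counts ran from 0 to 3 for insulin, 0 to 1 for glargine, 1 to 21 for X10, 0 to 3 for IGF1, 0 to 12 for the ligands pooled and 10 to 131 for X10 and IGF1 against the rest. Of the pairs of genes, 3 passed without centring, 1 by rank and 1 when the centred values were shuffled over all 50 tumors, against 0 with shuffles within groups, a restriction that was chosen after the first result had been seen. It was 0 without the 8 tumors that stood apart.

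Several member differences changed sign, and 0 of them passed the threshold. With pseudocount 1 they were for X10 Cdkn1b -0.00019. With quantile normalization they were for insulin Foxo1 -0.041, for X10 Foxo1 0.00046 and Sgk1 0.055, for X10 and IGF1 against the rest Foxo1 0.00099 and Cdkn1b 0.032. With upper quartile scaling they were for X10 Foxo1 0.0067 and Sgk1 0.048, for X10 and IGF1 against the rest Cdkn1b 0.0037. These scalings moved the median of all genes as well, for X10 by 0.045 with quantile normalization and 0.058 with upper quartile scaling and for insulin by -0.032 with quantile normalization, and after that shift was subtracted 6 of these 8 values had the sign first reported. The exceptions were, with quantile normalization, Foxo1 for insulin (-0.0090) and Sgk1 for X10 (0.0094). With adipocyte and skeletal muscle marker scores as covariates they were for insulin Foxo1 -0.0072. With log2 library size as a covariate they were for X10 Foxo1 0.046, Foxo3 -0.0021 and Klf15 0.019, for the ligands pooled Sgk1 -0.026. The next settings were chosen after seeing the data. With leukocyte marker score as a covariate they were for insulin Foxo1 -0.083, Foxo4 -0.037 and Txnip -0.16, for glargine Foxo3 -0.0052, Cdkn1b -0.033 and Txnip -0.021, for X10 Foxo3 -0.060, Sgk1 0.036, Cdkn1b -0.046 and Txnip -0.14, for IGF1 Sgk1 0.025 and Txnip -0.14, for the ligands pooled Foxo4 -0.039 and Txnip -0.12. With median of the gene's own chromosome as a covariate they were for insulin Foxo1 -0.076, Foxo4 -0.033 and Cdkn1b 0.068, for X10 Sgk1 0.012 and Klf15 0.075, for IGF1 Foxo4 -0.016 and Cdkn1b 0.056, for the ligands pooled Foxo4 -0.068 and Cdkn1b 0.088, for X10 and IGF1 against the rest Cdkn1b 0.039 and Gadd45a 0.067. For the settings other than scaling the cause was not tested.

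Without single tumors, values on both sides of 0 were found for 20 member differences. These were for insulin Foxo1 (-0.095 to 0.097) and Foxo4 (-0.0062 to 0.11). They were for glargine Foxo3 (-0.062 to 0.15), Sgk1 (-0.21 to 0.094) and Cdkn1b (-0.054 to 0.084). They were for X10 Foxo1 (-0.14 to 0.047), Foxo3 (-0.12 to 0.092), Sgk1 (-0.12 to 0.18), Cdkn1b (-0.069 to 0.068), Klf15 (-0.16 to 0.029) and Txnip (-0.040 to 0.090). They were for IGF1 Sgk1 (-0.16 to 0.17), Cdkn1b (-0.14 to 0.0022) and Txnip (-0.12 to 0.16). They were for the ligands pooled Foxo4 (-0.039 to 0.061), Sgk1 (-0.071 to 0.21) and Cdkn1b (-0.10 to 0.037). They were for X10 and IGF1 against the rest Sgk1 (-0.12 to 0.012), Cdkn1b (-0.041 to 0.012) and Gadd45a (-0.13 to 0.036). The number of reads of Klf15, 6 to 456 per tumor, limits its precision.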
